A study of Mus musculus with 20 samples.

Results

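Mthfd2 and 9 other genes of serine, folate and proline metabolism were described in left ventricular heart tissue of 20 male mice on 4 diets. The 10 genes were found by their mouse symbol among the 15956 genes of the count data: Mthfd2, Mthfd1, Mthfd1l, Shmt1, Shmt2, Phgdh, Psat1, Psph, Aldh1l2, and Pycr1. Mthfd2 was selected on its difference between HF and NP in these same libraries, and the set around it was put together with that result known. Values and counts of HF against NP are therefore a description that supports nothing, and no p-value is printed for any of the 10 genes there.

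The deposited counts hold 5 mice per diet, fewer than the paper states per group for its transcriptomic heat maps. The normal protein diet (NP) held 20% casein with control fat, and the low protein diet (LP) held 5% casein with the same fat. The high fat diet (HF) combined 20% casein with 60% fat, and the high fat and low protein diet (HF + LP) combined 5% casein with 60% fat. All mice were 12 months old at the start and ate their diet for 4 months, which by the methods makes them 16 months old at collection, whereas the labels give 18 months for every mouse. No mouse carried a stated genetic change, the strain is not given in the sources used here, and tissue was taken from fed mice in the middle of the light phase. Mice are named below by diet and animal number. No animal stands in more than 1 group.

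One-carbon metabolism moves single carbon units on folate, a B vitamin. Serine is the main donor: serine hydroxymethyltransferases (Shmt1 in the cytosol, Shmt2 in mitochondria) split it into glycine and a folate-bound carbon. In mitochondria, Mthfd2 oxidizes this carbon, and Mthfd1l then releases it as formate. Formate leaves for the cytosol, where Mthfd1 loads it on folate again for purine and thymidylate synthesis. Mthfd2 is low in most adult tissues and high in embryos, tumors, and activated immune cells, and the transcription factor ATF4 is known to induce it together with serine synthesis genes when amino acids are short or mitochondria are stressed. Serine itself is made from a glycolysis intermediate by Phgdh, Psat1, and Psph. Aldh1l2 burns folate-bound carbon to CO2 in mitochondria with gain of NADPH, and Pycr1 completes proline synthesis there.

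Sequences upstream of the annotated starts were read to see what the genes share besides function, and 4 are shown because Mthfd2, Mthfd1l, and Psat1 carry the results below and Pycr1 alone among 9 genes held the element that ATF4 binds with C/EBP partners. Each line gives the 250 bases before a start, 5′ to 3′, from RefSeq on GRCm38.p6, and Psat1 is shown for its upper window of 2. The windows of Mthfd2 and Psat1 lie inside the gene spans given below, which come from another annotation, GENCODE. Capitals mark CCAAT or its reverse complement ATTGG, and in Pycr1 also TGATGCAA.
Mthfd2, chr6:83317605-83317854, minus strand: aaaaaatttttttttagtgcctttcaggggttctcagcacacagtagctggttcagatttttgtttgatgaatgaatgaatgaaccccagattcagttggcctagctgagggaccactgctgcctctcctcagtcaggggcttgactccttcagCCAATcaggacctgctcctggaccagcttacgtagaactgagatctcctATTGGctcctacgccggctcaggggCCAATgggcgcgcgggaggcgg
Mthfd1l, chr10:3972825-3973074, plus strand: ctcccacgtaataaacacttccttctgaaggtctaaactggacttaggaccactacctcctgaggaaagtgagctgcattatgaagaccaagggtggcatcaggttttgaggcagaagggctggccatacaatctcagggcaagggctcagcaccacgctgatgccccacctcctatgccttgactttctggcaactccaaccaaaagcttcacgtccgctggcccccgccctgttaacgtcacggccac
Psat1, chr19:15925060-15925309, minus strand: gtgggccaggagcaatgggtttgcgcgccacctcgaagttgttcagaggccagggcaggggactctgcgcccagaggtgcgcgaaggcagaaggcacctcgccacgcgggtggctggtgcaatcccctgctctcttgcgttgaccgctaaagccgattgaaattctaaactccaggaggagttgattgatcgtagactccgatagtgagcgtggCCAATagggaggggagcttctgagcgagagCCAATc
Pycr1, chr11:120643749-120643998, minus strand: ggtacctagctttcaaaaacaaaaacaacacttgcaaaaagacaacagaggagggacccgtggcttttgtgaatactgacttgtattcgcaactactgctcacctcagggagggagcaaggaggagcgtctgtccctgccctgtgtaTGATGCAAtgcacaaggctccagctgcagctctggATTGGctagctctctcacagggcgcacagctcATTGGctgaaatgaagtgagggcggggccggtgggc

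Such a window was found for 9 of the 10 genes. The letters TGATGNAA were searched on both strands and stood in 3.45% of 32817 promoter windows of the same length. They stood 103 bases before the start of Pycr1, and overlapped no CCAAT. Mthfd2 did not hold these letters in this window. CCAAT, the core bound by the factor NF-Y, was searched after the sequences had been read. At least 1 copy stood in 7 genes and at least 2 copies in 5 genes (Mthfd2, Phgdh, Psat1, Psph, and Pycr1), against 33.8% and 10.1% of all windows. Mthfd2 held 3 copies, at 96, 47, and 22 bases before its start, which 2.79% of windows matched. The E-box CACGTG, the element of clock and Myc factors, stood in 6.02% of all windows and in 0 of the 9 genes.

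RNA was counted from the 3′ end of transcripts, and longer genes do not gain counts for their length. Total counts ran from 12559607 to 23331907 per mouse. Values per mouse are normalized counts, that is, counts divided by the library's effective size (TMM scaling) and multiplied by the mean of these sizes. Cardiomyocyte markers summed to between 536446 and 859966 in all 20 libraries. Atrial markers (Myl7, Sln, and Myl4) summed to between 53.3 and 65480 and varied within each diet. They were highest in LP 13 (65480) and HF 1 (64366), and the next highest library had 30808. Their part in the results was not tested. LP 20 and LP 13 stood apart. LP 20 held 1011 normalized counts of lymphocyte markers (5 of 6 in the counts, Cd79a not listed) against 21.5 to 74.8 in the other libraries, and 2266 of dividing cell markers against 101 to 490. The T cell genes Trbc2 and Lck reached 6009 and 1360 in LP 20, where the next highest library had 46.6 and 23.6. LP 13 held 2998 of adipocyte markers and LP 20 held 1015, against at most 540.5 in the other libraries. Ucp1, the uncoupling protein of brown fat, was 6037 in LP 13, 952 in LP 20, 568 in HF 3, and at most 188 elsewhere. The median correlation of library LP 13 with the other LP libraries was 0.908, and no other library fell under 0.944. Most results of HF + LP against LP are therefore given with and without LP 13 and LP 20, a choice made after the data had been seen. In whole tissue, fewer cells of a type and less RNA per cell cannot be told apart.

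Mthfd2 (ENSMUSG00000005667, chr6:83305691-83325908, minus strand, GRCm38) had its highest counts in the mice on high fat. In NP mice it had normalized counts of 35.2, 40.6, 45.6, 46.4, and 54.9. In LP mice the values were 46.6, 47.9, 50.3, 62.9, and 82.5, the highest in LP 20 and the next in LP 13. HF mice had 106, 125, 126, 130, and 141. All 5 HF mice lay above all NP and LP mice. In HF + LP mice the counts were 58.3, 92.8, 96.2, 117, and 124. HF + LP 1 was the low one, within the range of LP, and the other 4 lay above all LP and NP mice. The mean over 5 mice was 44.5 ± 7.31 (SD) on NP and 58.0 ± 15.1 on LP, while it was 126 ± 12.9 on HF and 97.7 ± 25.8 on HF + LP.

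**Figure D1:**
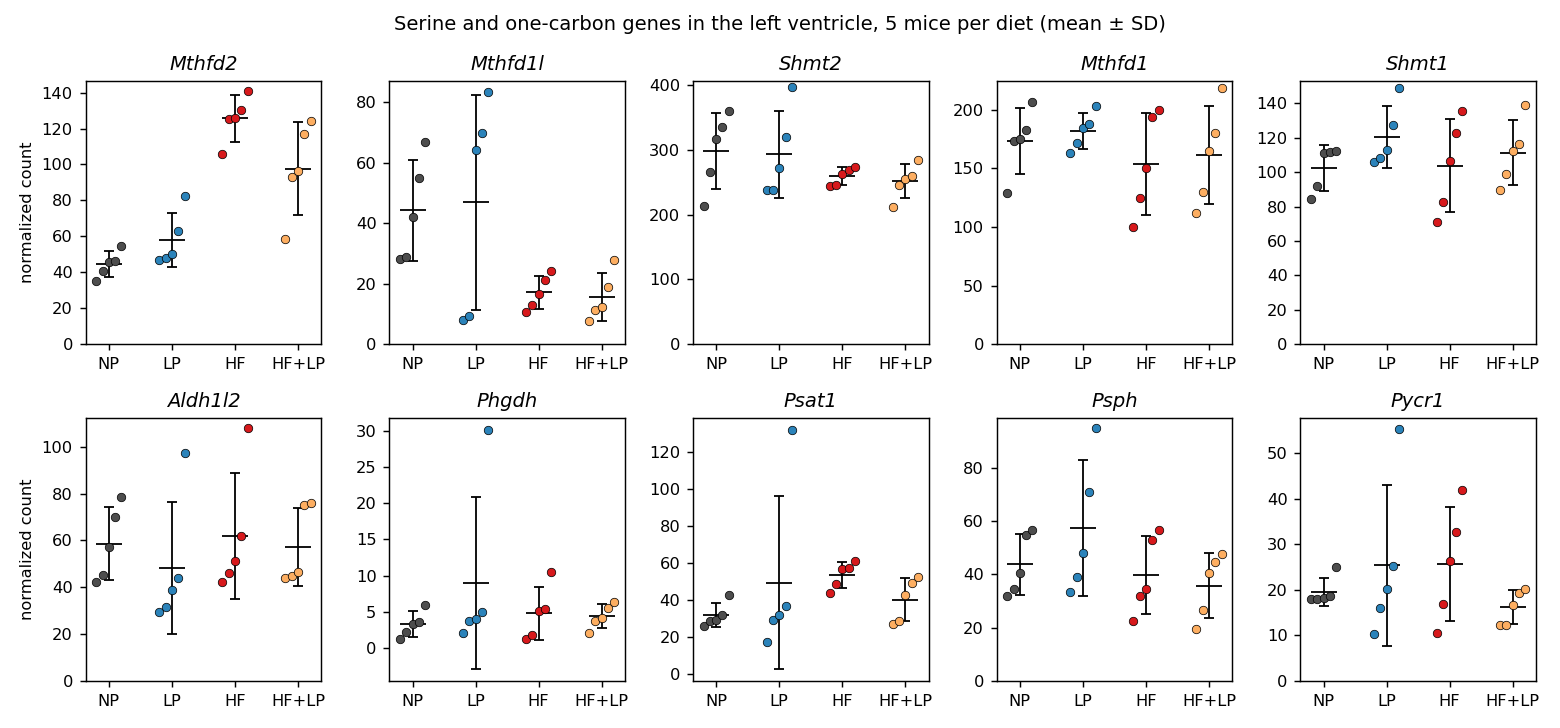
Normalized counts (vertical axes, linear, 1 panel per gene) of the 10 genes by diet, with 1 point per mouse and the mean ± SD of 5 mice as bars. Mthfd2 lay between 106 and 141 in HF and between 35.2 and 54.9 in NP, and Psat1 and Phgdh had 1 high LP mouse, LP 20.

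Fat content was compared at low protein first, because HF + LP against LP is the fat comparison that shares no library with HF against NP. Mthfd2 was 1.67-fold higher in HF + LP than in LP, a log2 fold change of 0.74 ± 0.19 (SE). This did not pass the threshold (edgeR quasi-likelihood test, Benjamini-Hochberg adjusted p = 0.0931, unadjusted p = 0.00107), which asks both for a mean normalized count over 50 and for an adjusted p under 0.01. The spread in that test was estimated over all 20 libraries, those of HF and NP among them. With the 2 groups alone in the model, the adjusted p from edgeR was 0.435. An exact permutation test of log2 CPM between these 5 and 5 mice gave p = 0.0238 (two-sided, smallest possible p = 0.00794). Without LP 13 and LP 20 the log2 fold change was 1.00 and the adjusted p from edgeR 0.0660, and all 5 HF + LP mice then lay above the 3 LP mice. At normal protein, HF against NP, the contrast that selected Mthfd2, the log2 fold change was 1.49 ± 0.20, or 2.81-fold.

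Protein content was compared within each fat content, and these comparisons share the HF or NP libraries that selected Mthfd2, so that for Mthfd2 they are not independent of the selection. HF + LP against HF had a log2 fold change of −0.36 ± 0.19 for Mthfd2. It did not pass (edgeR adjusted p = 0.999), and the exact permutation test gave p = 0.0476. The groups overlapped, and 3 mice on HF + LP lay below every HF mouse. LP against NP gave 0.39 ± 0.20 (edgeR adjusted p = 0.713, exact permutation p = 0.0873), and without LP 13 and LP 20 it was 0.12. HF + LP against NP gave 1.13 ± 0.20, or 2.19-fold, with no overlap between the groups. It is given as a description, since its NP libraries took part in selecting Mthfd2. The interaction of fat and protein, which contains the HF against NP difference, was −0.75 ± 0.27 for Mthfd2 and was not called. Without LP 13 and LP 20 it was −0.49.

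**Figure D2:**
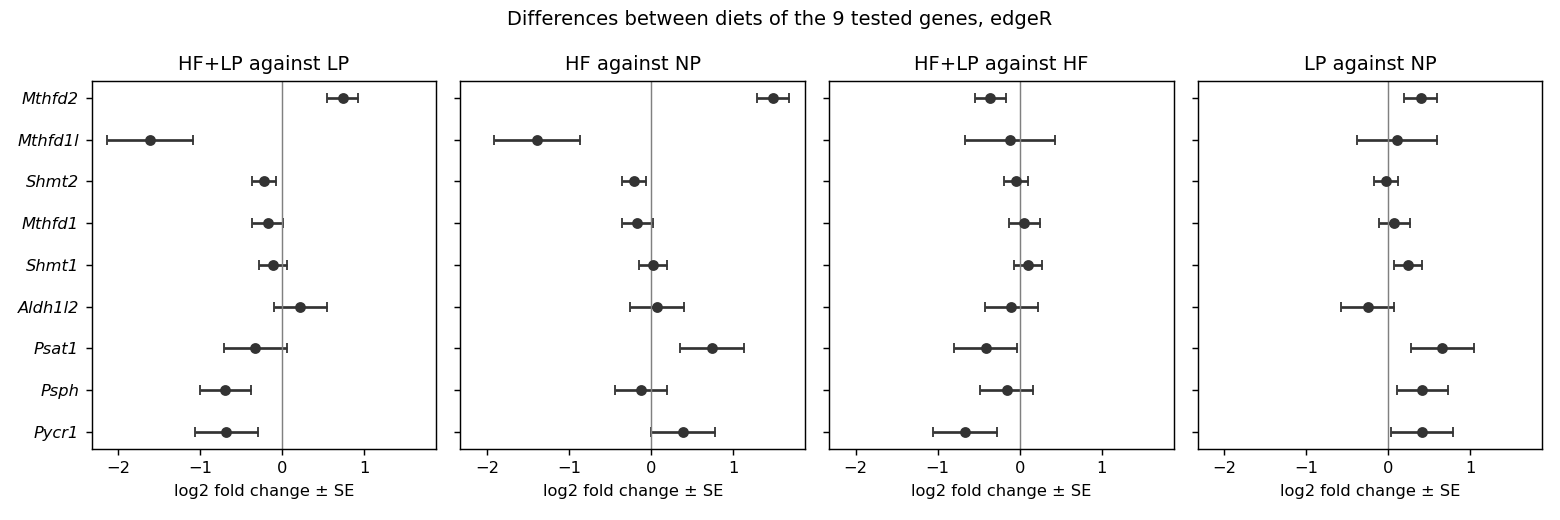
Log2 fold changes ± SE (horizontal axis) from edgeR of the 9 tested genes in 4 comparisons of diets. Mthfd2 stood at 1.49 in HF against NP and 0.74 in HF + LP against LP, and Mthfd1l at −1.39 and −1.61.

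Mthfd1l (ENSMUSG00000040675, chr10:3973118-4167081, plus strand), the mitochondrial enzyme that follows Mthfd2, had few counts, from 6 to 116 raw counts per mouse, and ran the other way. In NP mice its normalized counts were 28.3, 28.8, 42.2, 55.0, and 66.8. In LP mice they were 7.98 in LP 2 and 9.23 in LP 5, but 64.3, 69.8, and 83.2 in LP 15, LP 13, and LP 20. The LP group held 2 low and 3 high mice with nothing in between. HF mice had 10.7, 13.1, 16.7, 21.1, and 24.2. HF + LP mice had 7.61, 11.3, 12.3, 18.7, and 27.8. Every HF and HF + LP mouse lay below every NP mouse, while both groups overlapped with LP.

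The log2 fold change of Mthfd1l was −1.61 ± 0.52 in HF + LP against LP (edgeR adjusted p = 0.145, unadjusted p = 0.00559, exact permutation p = 0.183). It was −0.79 without LP 13 and LP 20 (edgeR adjusted p = 0.828). HF against NP gave −1.39 ± 0.52, and HF + LP against NP gave −1.51 ± 0.52 (edgeR adjusted p = 0.358, exact permutation p = 0.00794, the smallest possible). LP against NP was 0.11 ± 0.48 in edgeR, and the difference of mean log2 CPM had the opposite sign, −0.37 (exact permutation p = 0.587). HF + LP against HF gave −0.12 ± 0.55 (edgeR adjusted p = 0.999). With a mean normalized count of 31.0, Mthfd1l was under the minimum of 50 and could not be called in any comparison.

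Mthfd1l levels went along with circadian clock genes, which were looked up after its split within LP had been seen. Over the 20 libraries, the gene with the most similar log2 CPM among 10159 genes with a mean normalized count over 50 was Per3, a clock repressor (Pearson r = 0.925), followed by Per2 (0.886), Tef (0.865), and Per1 (0.857). Nr1d1, another clock repressor, had 0.617 (rank 360). Leaving out LP 13 and LP 20 gave 0.825 for Nr1d1 and 0.882 for Per2. With each diet's mean removed, the most similar genes were Boc (0.936), Ptger4 (0.922), Frat2 (0.909), and Pik3ip1 (0.902), and Per3 came next at 0.891. Nr1d1 then had 0.546 (0.731 without LP 13 and LP 20), and Clock, an activator of the loop, had −0.881. These values are descriptions over mice that share diets. Per3 had 797 to 901 normalized counts in the 5 NP mice. LP 2 and LP 5 had 210 and 227, and LP 20, LP 15, and LP 13 had 827, 1016, and 1283. HF mice had 224 to 400, and HF + LP mice had 146 to 623. Arntl, which partners Clock and peaks opposite to Per genes, was 108 in LP 2 and 84.1 in LP 5 against 1.26 to 32.3 in the other 3 LP mice. The collection hour of each mouse was not used here, and the part of clock phase in the diet differences of Mthfd1l was not tested.

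**Figure D3:**
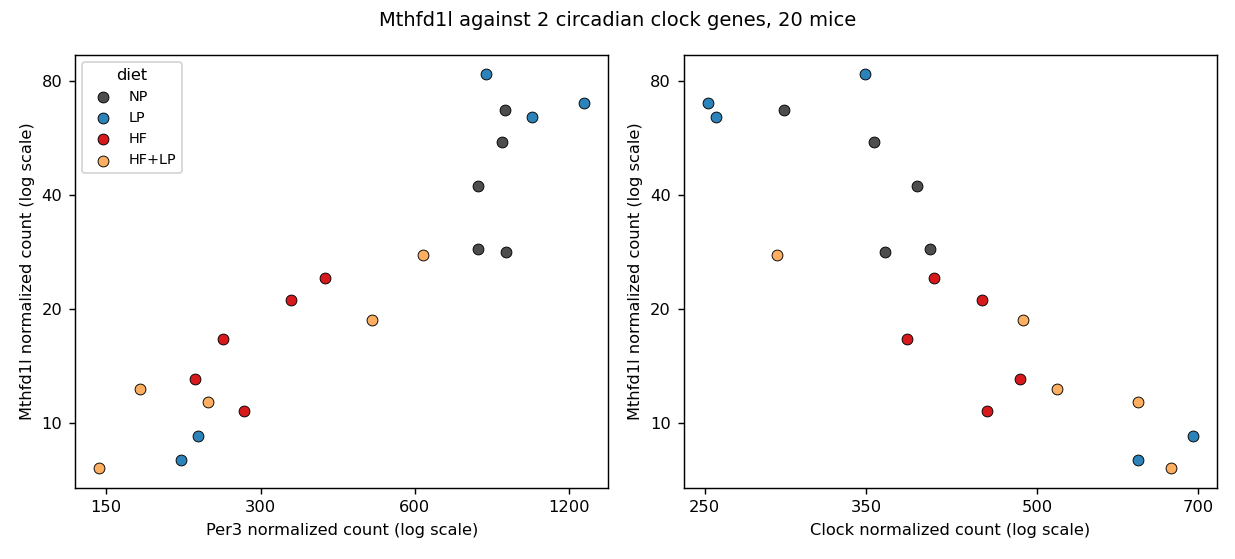
Normalized count of Mthfd1l (vertical axis, log scale) against Per3 and Clock (horizontal axes, log scale), with 1 point per mouse colored by diet. The 2 LP mice with Mthfd1l under 10 also had the lowest LP values of Per3, at 210 and 227, and the 3 other LP mice stood with NP.

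Shmt2 (ENSMUSG00000025403, chr10:127517123-127522444, minus strand), which loads the serine carbon on mitochondrial folate, differed little between diets. It ranged from 214 to 360 on NP and from 238 to 397 on LP, and from 244 to 274 on HF and from 212 to 284 on HF + LP. The 4 groups overlapped. HF + LP against LP gave a log2 fold change of −0.22 ± 0.15 (edgeR adjusted p = 0.478, exact permutation p = 0.246) and −0.34 without LP 13 and LP 20, and HF against NP gave −0.20 ± 0.15.

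Aldh1l2 (ENSMUSG00000020256, chr10:83487450-83534140, minus strand) varied among mice of the same diet more than between diets. Its normalized counts were 42.2 to 78.7 on NP, 29.3 to 97.5 on LP, 42.2 to 108 on HF, and 43.8 to 76.1 on HF + LP. LP 13 was the highest LP mouse at 97.5, and the other 4 LP mice had 29.3 to 44.1. The highest HF mouse, at 108, was HF 1, and LP 13 and HF 1 also had the highest sums of atrial markers. HF + LP against LP gave 0.22 ± 0.33 (edgeR adjusted p = 0.775), and 0.59 without LP 13 and LP 20 (edgeR adjusted p = 0.713).

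The cytosolic enzymes Mthfd1 (ENSMUSG00000021048, chr12:76255298-76319803, plus strand) and Shmt1 (ENSMUSG00000020534, chr11:60788104-60811718, minus strand) showed no separation of diets either. Mthfd1 had means of 173 ± 28.3 (SD, n = 5) on NP and 182 ± 15.4 on LP, against 154 ± 43.1 on HF and 161 ± 41.9 on HF + LP. Shmt1 had means of 102 ± 13.2, 121 ± 17.9, 104 ± 27.1, and 111 ± 18.8 in the same order. The log2 fold changes in HF + LP against LP were −0.18 ± 0.19 for Mthfd1 and −0.11 ± 0.17 for Shmt1 (edgeR adjusted p = 0.670 and 0.779), and −0.17 and −0.21 without LP 13 and LP 20. Reads of Shmt1, Shmt2, Psph, and Aldh1l2 may be shared with a gene on the opposite strand that overlaps them (Smcr8, Ndufa4l2, Cct6a, and D10Wsu102e), since it is not stated whether counting used strand.

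Of the serine synthesis genes, Phgdh (ENSMUSG00000053398, chr3:98313170-98339990, minus strand), which commits the glycolysis intermediate to serine, had 1 to 42 raw counts and did not enter the test. Its normalized count was 30.1 in LP 20 and at most 10.5 in any other mouse. The remaining LP mice had 2.05 to 5.04, close to NP with 1.31 to 6.02, HF with 1.32 to 10.5, and HF + LP with 2.06 to 6.41.

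Psat1 (ENSMUSG00000024640, chr19:15904678-15947337, minus strand), the aminotransferase that follows Phgdh, had normalized counts of 26.2, 28.6, 29.4, 31.8, and 43.0 in NP. In HF they were 43.7, 48.8, 56.8, 57.2, and 61.0. The lowest HF mouse was just above the highest NP mouse. In LP they were 17.4, 29.3, 32.1, 36.5, and 132, the last in LP 20. In HF + LP they were 27.1, 28.9, 42.8, 49.1, and 52.6, which overlapped with every other group. The log2 fold change was 0.75 ± 0.39 in HF against NP. It was −0.33 ± 0.38 in HF + LP against LP (edgeR adjusted p = 0.704). That sign rested on LP 20: without LP 13 and LP 20 it was 0.53 (edgeR adjusted p = 0.683). HF + LP against HF gave −0.41 ± 0.38 (edgeR adjusted p = 0.999, exact permutation p = 0.0714). In LP 20, the high Psat1 and Phgdh stood beside lymphocyte markers of 1011 and dividing cell markers of 2266, and the part of such cells in the values was not tested.

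Psph (ENSMUSG00000029446, chr5:129765558-129787449, minus strand), which releases serine in the last step, had normalized counts of 31.9 to 56.5 in NP and 22.4 to 56.8 in HF. LP mice had 33.3, 39.0, 47.9, 71.0, and 95.0, with LP 20 and LP 13 the highest. HF + LP mice had 19.6, 26.7, 40.3, 44.8, and 47.6. The difference of HF + LP against LP was −0.69 ± 0.31 (edgeR adjusted p = 0.287, unadjusted p = 0.0390, exact permutation p = 0.127). Leaving out LP 13 and LP 20 shrank it to −0.17 (edgeR adjusted p = 0.973).

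Pycr1 (ENSMUSG00000025140, chr11:120635712-120643769, minus strand) was close together in NP, at 17.9, 18.1, 18.1, 18.7, and 24.9, and spread in HF, at 10.5, 16.9, 26.2, 32.6, and 42.0. LP mice had 10.3, 15.96, 20.1, 25.2, and 55.3, the last in LP 13. The highest values in HF and in LP thus came from HF 1 and LP 13, the libraries with the highest sums of atrial markers. HF + LP mice had 12.4, 12.4, 16.7, 19.2, and 20.2. The highest NP mouse, NP 5, also had the highest atrial sum of its diet (20378). In HF + LP the highest atrial sum stood in HF + LP 3 (29651), which had 12.4 of Pycr1. All groups overlapped, and HF + LP against LP gave −0.68 ± 0.39 (edgeR adjusted p = 0.395). It was −0.08 without LP 13 and LP 20 (edgeR adjusted p = 0.992).

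Counted over the set, 9 genes were tested and 5 of them (Mthfd2, Mthfd1, Shmt1, Shmt2, and Aldh1l2) had a mean normalized count over 50, so that 4 could not be called at any p. In HF + LP against LP, edgeR called 0 of the 9, while it called 14 of 13991 genes (0.1%). DESeq2 also called 0, against 0.544% of its genes. At an unadjusted p under 0.05, 1 gene was higher (Mthfd2) and 2 were lower (Psph and Mthfd1l), where 15.9% of all genes passed, 6.26% higher and 9.66% lower. Without LP 13 and LP 20, 1 was higher and 1 lower, beside 2.69% and 4.81%. Groups did not overlap for 0 of the 9 and for 1.87% of all genes. The median log2 fold change was −0.22 for the 9 and −0.03 for all genes.

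The counts in HF against NP, which selected Mthfd2, follow from that selection and nothing is read from them: edgeR called Mthfd2 alone among the 9, beside 0.264% of all genes. At an unadjusted p under 0.05, 2 of the 9 passed beside 13.1% of all genes, and 3 (Mthfd2, Psat1, and Mthfd1l) had groups without overlap beside 5.67%. With HF + LP against HF, edgeR called 0 of the 9 and 0.0% of all genes, DESeq2 called 0 and 0.135%, 0 of the 9 passed at an unadjusted p under 0.05 beside 4.84%, and 0 had groups without overlap beside 1.18%. When LP 13 and LP 20 were left out of the model, 2 (Mthfd2 and Pycr1) were lower there at an unadjusted p under 0.05, beside 3.56% of all genes. LP against NP gave 0 calls by edgeR beside 0.0%, 0 by DESeq2 beside 0.019%, 0 at an unadjusted p under 0.05 beside 7.23%, and 0 without overlap beside 0.786%. HF + LP against NP shares the NP libraries, and its counts are a description too: edgeR called 0 beside 0.0286%, and DESeq2 called Mthfd2 beside 0.194%. There, 2 genes (Mthfd2 and Mthfd1l) passed at an unadjusted p under 0.05 beside 8.77%, and the same 2 had groups without overlap beside 2.57%. The interaction gave 0 calls by edgeR beside 0.0% and 0 by DESeq2 beside 0.0%, with 1 gene (Mthfd2) at an unadjusted p under 0.05 beside 7.17%, and 0 without LP 13 and LP 20.

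Whether the genes vary together between mice on the same diet was asked with log2 CPM from which each diet's mean had been removed. Over 20 mice, Mthfd2 correlated with Psat1 (Pearson r = 0.679, within-diet permutation p = 0.00406, 0.0325 after Benjamini-Hochberg adjustment over 8 genes, Spearman rho = 0.684 with an adjusted permutation p of 0.0345). Without HF + LP 1 and LP 20, the 2 mice farthest from the median of Mthfd2, r was 0.413, and without LP 13 and LP 20 it was 0.545 (adjusted permutation p = 0.269). The relation therefore leaned on a few mice. The other 7 genes had r between −0.156 and 0.255, with adjusted permutation p of 0.687 or more, and Shmt2, the enzyme just before Mthfd2, gave −0.156.

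Genes most like Mthfd2 were listed by Pearson r of log2 CPM, among 10159 genes with a mean normalized count over 50. Over the 20 libraries these were Rcn1 (0.893), Ostc (0.869), Myo1f (0.851), Ctss (0.839), and Rap1b (0.825). Rcn1 is a calcium binding protein of the endoplasmic reticulum, and Ostc belongs to its glycosylation complex. Myo1f is a myosin of white blood cells, and Ctss is a protease of antigen presenting cells. With diet means removed they were Eri1 (0.848), Snrpd1 (0.835), Syk (0.819), Trim27 (0.808), and Cybc1 (0.776). Syk is a kinase of immune receptors, Cybc1 assists the phagocyte oxidase, and Snrpd1 is a splicing factor. The 8 macrophage markers were all in the counts and summed to 3542 to 5162 on NP, 2595 to 7170 on LP, 4658 to 6557 on HF, and 3599 to 5209 on HF + LP. HF had the highest median macrophage sum, 5662, and NP, LP, and HF + LP had 4550, 4091, and 4100. The 5 dividing cell markers were all in the counts too, and their sum ran from 102 to 196 on NP, 101 to 2266 on LP, 152 to 490 on HF, and 117 to 244 on HF + LP. HF again had the highest median, 329.9, against 179.6 on NP, 119 on LP, and 178 on HF + LP. The 5 endothelial markers had median sums of 8203 on NP and 8257 on LP, and of 10246 on HF and 9842 on HF + LP. Their ranges overlapped, with 6410 to 11121 on LP and 7945 to 11635 on HF + LP. The part of macrophages, dividing cells, or endothelial cells in the level of Mthfd2 was not tested.

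The other genes of these pathways were counted from lists drawn up with earlier results of the data known. The lists held 95 further gene symbols, some of them second names of a gene also listed. Of these symbols, 83 were in the counts and 81 were tested, 58 of them with a mean normalized count over 50. Of these 81, edgeR called 0 in HF + LP against LP, beside 0.1% of all genes. At an unadjusted p under 0.05, 3 were higher and 16 lower, beside 6.26% and 9.66% of all genes. Without LP 13 and LP 20 this became 2 higher and 4 lower, beside 2.69% and 4.81% of all genes, with 3 LP mice left in the comparison. The median log2 fold change of the 81 genes was −0.10 with all libraries and −0.02 without the 2.

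In the list of serine synthesis and use, 0 of 13 genes were higher and 4 lower at an unadjusted p under 0.05, beside 6.26% and 9.66% of all genes. Without LP 13 and LP 20, Sfxn2 alone stayed under 0.05. Sfxn2, a relative of the mitochondrial serine carrier, had −0.78 ± 0.19 (edgeR adjusted p = 0.0824), and −0.49 without LP 13 and LP 20. It had 69.2 to 172 normalized counts in LP and 64.7 to 76.9 in HF + LP. Slc1a5, a transporter of neutral amino acids, had −0.97 ± 0.33, but −0.08 without the 2 mice. In the list of folate cycle and transport, 0 of 13 were higher and 3 lower, and Fpgs alone stayed under 0.05 without the 2 mice. Fpgs, which adds glutamates that keep folate in the cell, had −0.62 ± 0.21 (edgeR adjusted p = 0.163), and −0.54 without the 2 mice. Mthfd2l, the relative of Mthfd2 that adult tissues are known to express, had −0.08 ± 0.25 in HF + LP against LP and −0.15 without the 2 mice. In HF against NP it had 0.26 ± 0.25.

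In the list of glycine cleavage and methyl donor breakdown, 1 of 8 genes was higher and 1 lower, and Gcsh alone stayed under 0.05 without LP 13 and LP 20. Gcsh, the carrier protein of the glycine cleavage system, had 0.39 ± 0.11 (edgeR adjusted p = 0.124), and 0.25 without the 2 mice, and Aldh7a1 had −0.14 ± 0.10 (−0.15 without them). In the methionine cycle and transsulfuration list, 0 of 15 were higher and 3 lower. Without the 2 mice, Gnmt was lower and Nnmt higher at an unadjusted p under 0.05, and no other gene of this list passed. Cdo1, which oxidizes cysteine, had −2.64 ± 0.73 but −0.08 without LP 13 and LP 20, and it ranged from 66.7 to 1666 in LP. The proline list had 0 of 5 higher and 1 lower, Prodh, which begins proline breakdown, at −0.57 ± 0.20 (edgeR adjusted p = 0.179) and −0.45 without the 2 mice, while Aldh4a1 had −0.10 ± 0.11 and −0.21 without them. No gene of this list stayed under 0.05 without them. The purine list had 0 of 13 higher and 3 lower, and Gart alone stayed under 0.05 without the 2 mice. Pfas, an enzyme of purine synthesis, had −0.57 ± 0.17 (edgeR adjusted p = 0.125), and −0.36 without the 2 mice, and Prps1 had −0.39 ± 0.24 but −0.10 without them.

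The list of ATF4 and the integrated stress response held 15 tested genes. In HF against NP, 6 of these 15 genes were higher at an unadjusted p under 0.05 and 0 lower, beside 5.17% and 7.91% of all genes, and the median log2 fold change was 0.50, against 0.00 for all genes. They were Gdf15, Atf3, Asns, Nupr1, Ddit4, and Atf5, and edgeR called 0 of them. Asns, which makes asparagine, had 25.7 ± 9.16 normalized counts on NP, 45.1 ± 23.9 on LP, 50.7 ± 6.79 on HF, and 32.8 ± 9.54 on HF + LP. Its LP values had a median of 38.0 and reached 84.9. Gdf15, a stress hormone, had 62.9 ± 34.3 (SD, n = 5) on NP, 51.5 ± 26.0 on LP, 184 ± 87.9 on HF, and 96.2 ± 18.2 on HF + LP. Atf4 itself gave 0.30 ± 0.15. Of the 15, 0 were higher and 4 lower in HF + LP against HF (Gdf15, Nupr1, Ddit3, and Sesn2), beside 2.41% and 2.43% of all genes, with a median of −0.36. That comparison shares the HF libraries with HF against NP and is a description too. When HF + LP was compared with LP, 2 were higher (Gdf15 at 0.93 ± 0.40 and Atf5 at 0.44 ± 0.19) and 1 was lower, beside 6.26% and 9.66% of all genes, with a median of 0.15. These counts were 0 and 0 without LP 13 and LP 20, beside 2.69% and 4.81%, with a median of 0.04. Gdf15 then had 0.54 and Atf5 had 0.36. Against NP, HF + LP had 0 of the 15 higher and 0 lower, beside 3.9% and 4.87% of all genes. LP against NP had 1 of the 15 higher and 0 lower, beside 5.02% and 2.21% of all genes, with a median of −0.05. Without LP 13 and LP 20 it had 0 higher and 1 lower, beside 1.66% and 1.02%.

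**Figure D4:**
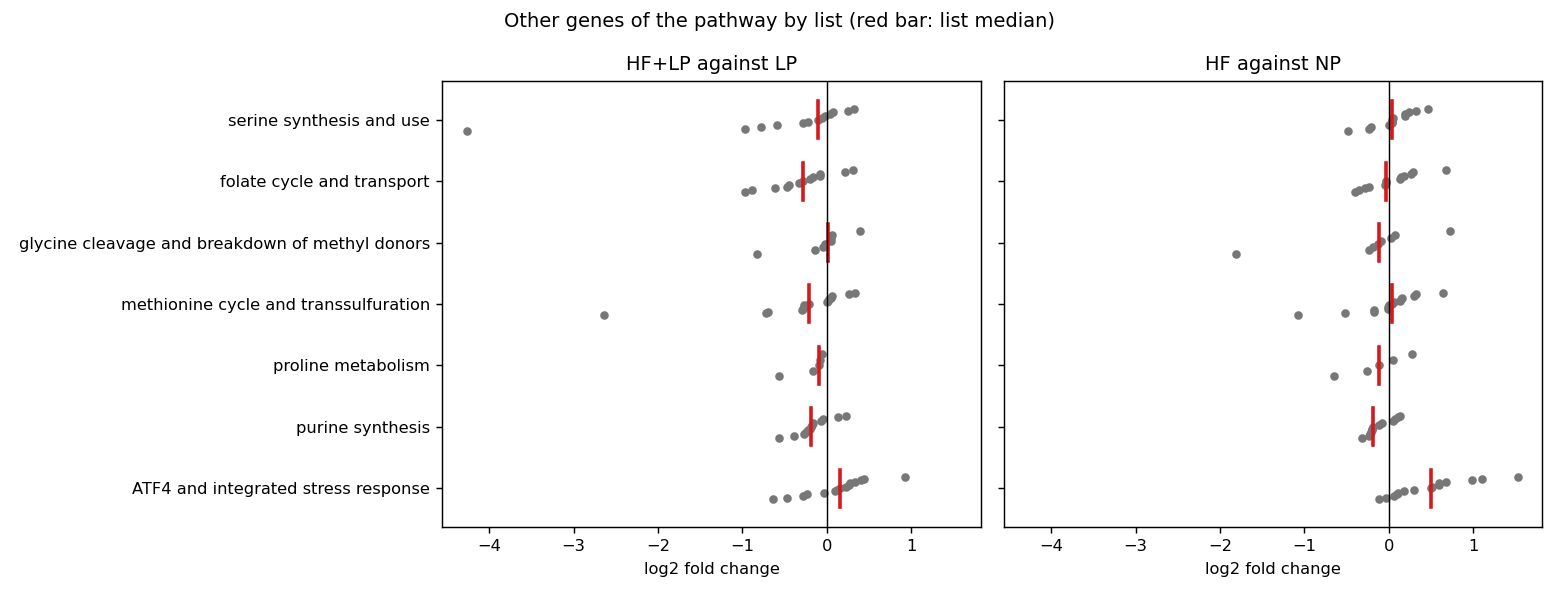
Log2 fold changes (horizontal axis, edgeR) of the other pathway genes by list in HF + LP against LP and in HF against NP, with 1 point per gene and the list median as a red bar. The ATF4 list had a median of 0.50 in HF against NP, and the points at −4.26 and −2.64 in HF + LP against LP are Sds and Cdo1.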

How the data were processed

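Left ventricular RNA of 20 mice was sequenced by the authors with QuantSeq 3′ libraries (75 bp reads, NextSeq 500) and aligned with BlueBee software. They deposited raw counts per Ensembl gene and mouse. Per the submitters' processing notes the build was GRCm38 and DESeq2 1.22.2 was used. The annotation, the counting program, and its strand setting are not given in the sources used here. The counts hold 15956 genes, each with at least 60 counts in all, of which 15917 had a symbol.

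Counts were tested with edgeR 4.0.16 (R 4.3.3): filterByExpr by diet, which kept 13991 genes, TMM scaling, and 1 quasi-likelihood model of all 20 libraries. P-values were adjusted over all tested genes (Benjamini-Hochberg). A call needed a mean normalized count over 50 together with an adjusted p under 0.01, the limits of the study's methods. Standard errors were derived from the F statistic. DESeq2 1.42.0, other scaling and filters, covariates, and each mouse left out were alternatives. Log2 CPM used a prior count of 2. Correlations used 100000 permutations within diets. The test was tried on simulated counts with 200 changed genes of 13991. Coordinates are those of GENCODE M21 on GRCm38.

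Groups and mice were taken from the sample labels. The labels do not say that same-numbered animals of different diets belong together, and the numbers are not used as pairs. P-values from edgeR set a difference against the spread between mice on the same diet, estimated over all 20 libraries. Exact permutation p-values use the mice of the 2 diets compared alone. Those of correlations come from shuffling mice within diets. The members, gene lists, tests, and alternatives were chosen with earlier results of these data known. The genes named are the 10 members, the 5 most similar to Mthfd2 on each of 2 scales, and in each list the called genes and the 2 with the largest change in HF + LP against LP among those with a mean normalized count over 50. One gene under this rule is not reported here. Genes named outside this rule were chosen after their values were seen: the clock genes, Boc, Ptger4, Frat2, Pik3ip1, Mthfd2l, Trbc2, Lck, Ucp1, Sds, Gnmt, Nnmt, Gart, Asns, Atf3, Atf4, Nupr1, Ddit3, Ddit4, and Sesn2. Protein sequences were not used here.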

Additional observations from a re-analysis of the deposited data

Results flagged for a closer look

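For each of the 10 genes in each of the 4 diets, the highest and the lowest mouse were compared with the spread of their group. Of these 40 groups, 4 held a mouse farther from the others than Dixon's 95% limit for 5 samples (0.710) on the scale of normalized counts. They were Phgdh in LP 20 (30.1), Psat1 in LP 20 (132), Aldh1l2 in LP 13 (97.5), and Pycr1 in NP 5 (24.9, where the other 4 NP mice had 17.9 to 18.7). On the log2 scale, with 1 added, Pycr1 in NP 5 alone passed the limit. Chance alone gives such a mouse in about 5% of groups.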

How the results depend on the processing

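Of 1242 recomputed log2 fold changes of the members outside HF against NP, 1175 kept their direction and side of the threshold, 61 changed sign, and 6 passed the threshold where they had not. In HF against NP, for which no p-value is printed, 12 of 243 changed sign (Shmt1, Psph, and Aldh1l2), and all 243 moved by less than the SD between mice. Of 173 counts of members called, 167 stayed, and 29 of 29 counts of pathway genes called in HF + LP against LP stayed at 0. Mthfd2 kept its direction in every alternative run, with log2 fold changes of 0.64 to 1.00 in HF + LP against LP (adjusted or exact p from 0.0238 to 0.700) and 1.42 to 1.61 in HF against NP. In HF + LP against NP it was 1.03 to 1.27, and it was called at 1.13 by DESeq2 and at 1.12 without LP 13 and LP 20, with 1.07 in the exact permutation test on log2 CPM. Members called there were 0 to 1 with each mouse left out in turn, with 1 without HF + LP 1 or without LP 20, and 1 by DESeq2, without LP 13 and LP 20, and at an adjusted p under 0.05. The labels do not say whether same-numbered mice belong together. The correlation of their deviations averaged −0.038 between HF and HF + LP (5 numbers, −0.553 to 0.476), and so few numbers cannot decide it. With the animal number as a replicate block, members called in HF against NP fell to 0, so that Mthfd2 was no longer past the threshold there. The block also gave Mthfd1l 0.67 in HF + LP against LP, −2.72 in LP against NP, and 2.55 in the interaction, Shmt2 0.0038 in LP against NP, Psat1 0.68 in HF + LP against LP and −0.39 in LP against NP, and Pycr1 0.055 and −0.51 in these comparisons, all opposite in sign to the unblocked fit. Without LP 13 and LP 20, signs turned for Mthfd1l (−0.73 in LP against NP, 0.61 in the interaction), Psat1 (0.53 in HF + LP against LP, −0.21 in LP against NP), and, in LP against NP, Shmt2 (0.092), Psph (−0.12), and Pycr1 (−0.20), and for Mthfd1 in the interaction (0.00059). On log2 CPM they turned for Mthfd1l in LP against NP (−0.37) and Psat1 in HF + LP against LP (0.014), and with the library name number as a covariate for the interactions of Mthfd1 (0.017) and Shmt2 (0.0021). The numbers of LP 13, LP 15, LP 20, NP 6, and NP 8 stand in no other diet, so with the block these mice add nothing to the diet differences. The blocked LP level thus came from LP 2 and LP 5 alone. The cause of the other changes was not tested.

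With each mouse left out in turn, signs turned within these ranges of log2 fold change. For HF + LP against HF they were −0.075 to 0.17 for Mthfd1, −0.43 to 0.033 for Mthfd1l, −0.0097 to 0.21 for Shmt1, −0.32 to 0.0033 for Psph, and −0.26 to 0.18 for Aldh1l2. In LP against NP they were −0.019 to 0.14 for Mthfd1, −0.20 to 0.37 for Mthfd1l, −0.16 to 0.048 for Shmt2, −0.14 to 0.87 for Psat1 (negative without LP 20), and −0.13 to 0.61 for Pycr1 (negative without LP 13). In HF + LP against NP they were −0.24 to 0.0078 for Mthfd1 and −0.15 to 0.094 for Aldh1l2. Psat1 in HF + LP against LP had −0.54 to 0.46, positive without LP 20. In the interaction they were −0.14 to 0.10 for Mthfd1, −0.54 to 0.079 for Mthfd1l, −0.092 to 0.12 for Shmt2, and −0.0053 to 0.59 for Aldh1l2. The number of genes correlated with Mthfd2 within diets was 0 to 1, with 0 without NP 4, LP 20, HF + LP 1, HF + LP 4, or HF + LP 5, and 0 without LP 13 and LP 20, where r was −0.12 for Mthfd1l and −0.047 for Pycr1. For Mthfd1, r was −0.21 to 0.11. Raw counts of 1 to 184 per mouse for Phgdh, Pycr1, Mthfd1l, Psat1, and Psph limit their precision.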
